A study of Mus musculus with 6 samples.

Results

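The mitochondrial ribosomal proteins are the nuclear-encoded proteins of the ribosome inside mitochondria. Genes were taken by symbol, as every row named Mrpl or Mrps followed by a number and at most 1 letter, and 78 of the 53700 rows of the deposited gene table fitted. RNA had been sequenced from primary spermatocytes, the germ cells in meiotic prophase, isolated from C57BL/6 mouse testes at 8 weeks of age by flow sorting on Hoechst dye. Wild type (WT) and circSry KO, a knockout of the circular RNA of Sry, had 3 libraries each. The labels give no other allele or treatment, and do not say how the knockout was made, how many mice went into a library or whether each library came from its own mouse, so the p-values cover no more than the spread among these 6 libraries, which may be technical.

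The mitochondrial ribosome translates the few messenger RNAs made from mitochondrial DNA, all of which encode subunits of the respiratory chain and ATP synthase. Its RNAs come from mitochondrial DNA, while all of its proteins are made in the cytosol and imported. Part of them descend from bacterial ribosomal proteins and the others were gained in mitochondria. Germ cells are known to remodel their mitochondria during meiosis.

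By the structural nomenclature of the particle, 51 of the 78 genes encode proteins of the large subunit and 26 of the small subunit, and 46 are conserved from bacteria and 31 are specific to mitochondria. Mrps18a and Mrps30 are counted in the large subunit, where their proteins sit in spite of their symbols. Mrps36 is in neither class: its protein was first listed with the small subunit and is now known as a component of the 2-oxoglutarate dehydrogenase complex of the citric acid cycle. All 78 had enough counts to be tested, the lowest count in any library being 12. In GENCODE M21 (GRCm38) they lay on 17 autosomes, with 11 on chromosome 11 and 8 on chromosome 17, and 0 lay on the X or Y chromosome, which are silenced in spermatocytes.

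Libraries held 7400360 to 9294723 estimated read counts. Expression within a gene is given as CPM, counts scaled by library size and TMM factor, and levels of different genes as TPM, which also divides by transcript length. Spermatocyte markers were present in all libraries, 15 of 15 tested, with Sycp3, of the chromosome axis, at 326 to 430 TPM in WT and 61.6 to 307 in circSry KO. circSry KO replicate 3 stood apart: its log2 CPM correlated across genes at 0.927 with WT replicate 1 and at 0.878 and 0.778 with circSry KO replicates 1 and 2, which correlated at 0.946 with each other. Genes are not independent replicates, and these values describe the libraries only. Fold changes below are given with and without circSry KO replicate 3.

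In WT spermatocytes the mitochondrial ribosomal protein genes spanned a 64-fold range of mean level, from 5.45 TPM for Mrpl50 to 349 TPM for Mrpl52, with a median of 55.4 TPM. The range depends on the effective transcript length by which TPM divides, 1880 bases for Mrpl50 and 184, the shortest, for Mrpl52. Mean WT levels not divided by length were 6.71 CPM for Mrpl50, 43.1 for Mrpl52 and 167 for Mrpl24. A mean of 10 TPM or more was reached by 76 of the 78. The most abundant large-subunit transcripts were Mrpl52, Mrpl54, Mrpl51 and Mrpl24. The first 3 encode proteins without a bacterial counterpart, and Mrpl24 encodes uL24m, near the exit of the tunnel through which the new protein leaves.

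Mrpl52 stood at 499, 301 and 248 TPM in WT replicates 1, 2 and 3, a mean of 349 ± 132 (SD, n = 3). Mrpl54 had 473, 257 and 272 TPM, or 334 ± 121 (SD, n = 3), and Mrpl51 377, 243 and 266 TPM, or 295 ± 71.9 (SD, n = 3). Mrpl24 stood at 319, 256 and 234 TPM, a mean of 270 ± 44.2 (SD, n = 3). These 4 overlapped in their WT values, so their order is not resolved beyond the spread. At the other end Mrpl19 had 5.53, 12.6 and 6.28 TPM and Mrpl50 3.49, 7.64 and 5.23 TPM, also overlapping.

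The small subunit was led by Mrps21, the counterpart of bacterial S21, at 127, 128 and 112 TPM in the WT libraries. Next came Mrps11, of the platform near the mRNA exit, at 112, 71.8 and 69.1 TPM. Mrps18b and Mrps18c followed at means of 82.9 ± 20.5 and 80.3 ± 35.4 TPM (SD, n = 3 each), which overlapped with Mrps11. The lowest were Mrps27, encoding a pentatricopeptide-repeat protein, at 23.1, 18.2 and 15.5 TPM and Mrps2 at 10.7, 18.6 and 16.9 TPM.

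Per gene, the large subunit had more transcript than the small subunit in every library. Its mean level per gene was 101, 82.7 and 80 TPM in the WT libraries against 58.6, 52.5 and 46.5 TPM for the small subunit, a ratio of 1.57 to 1.72. In circSry KO the ratio was 1.67 to 1.87, a range that overlaps with WT. The order of the 78 genes by TPM was similar between libraries, with Spearman's rho of 0.87 to 0.95 among WT libraries and 0.74 to 0.91 between WT and circSry KO libraries. These are rank correlations over 78 genes and describe the libraries only.

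**Figure D1:**
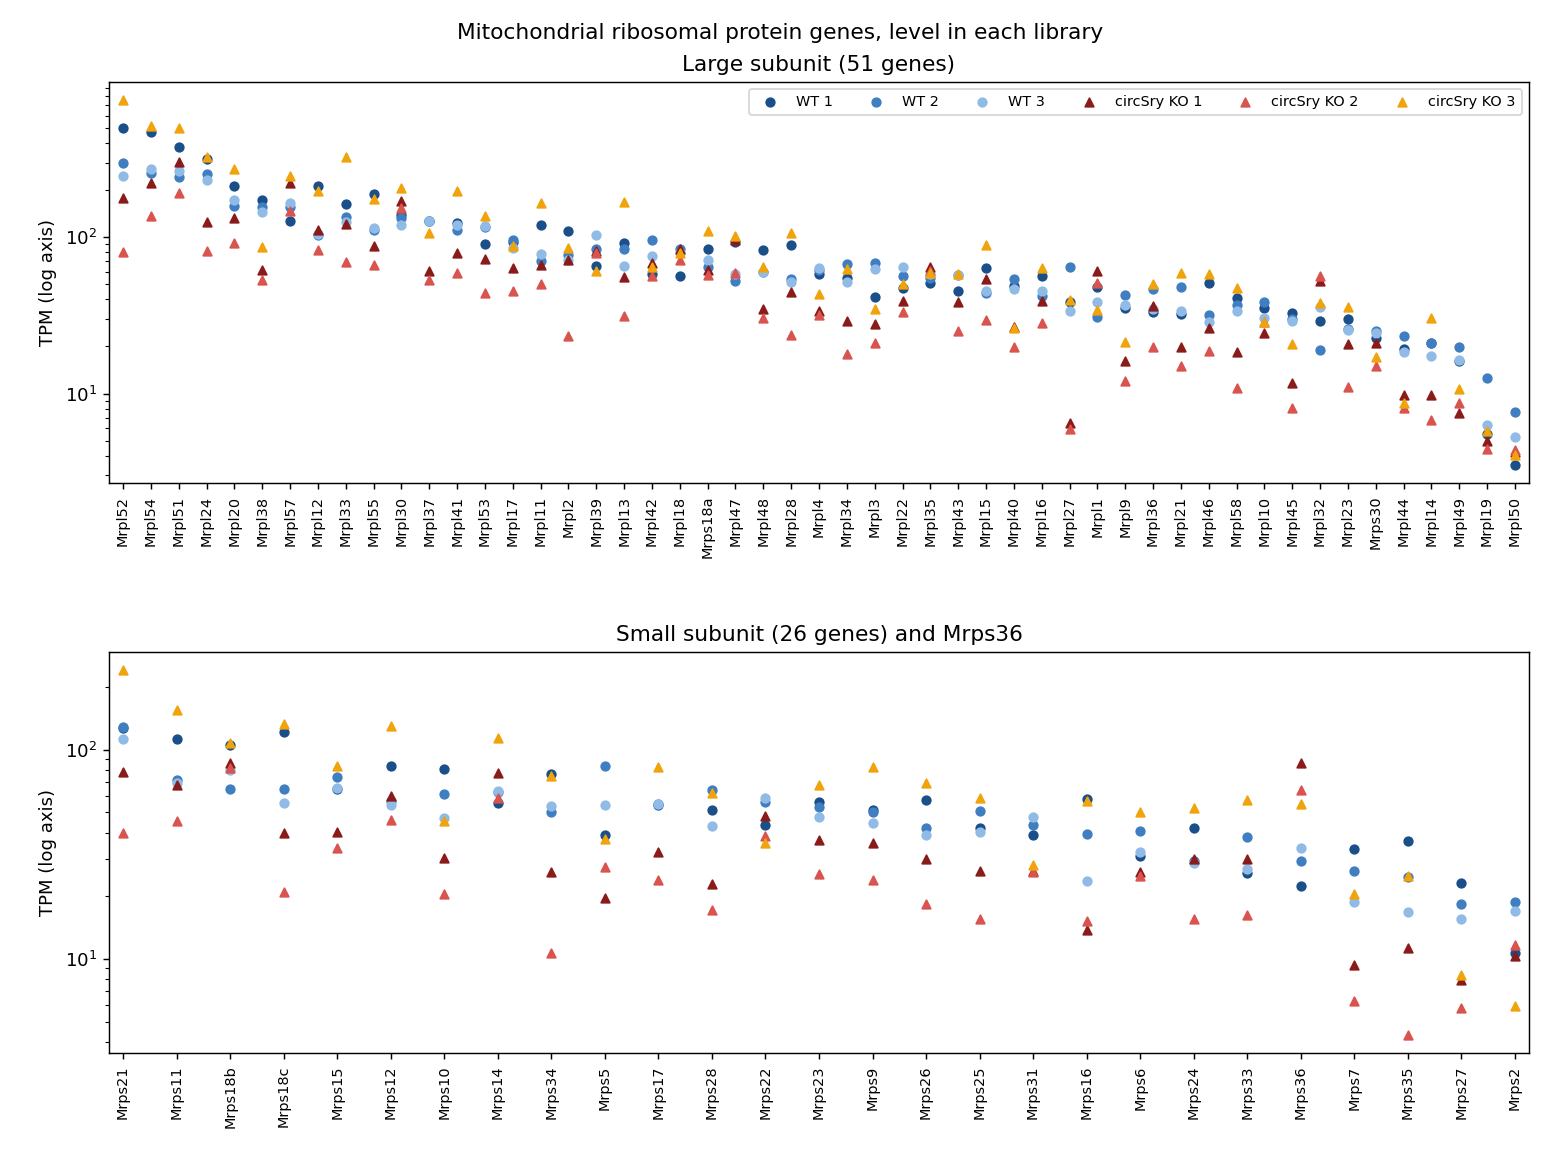
TPM (log axis) of each of the 78 genes in each library, ordered by mean WT level within each subunit; circles are WT and triangles circSry KO libraries. Mrpl52 leads the large subunit at 248 to 499 TPM in WT, and it runs from 80.9 TPM in circSry KO replicate 2 to 755 TPM in circSry KO replicate 3.

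The comparison of circSry KO with WT asks which transcripts differ when the circular RNA is absent. For the mitochondrial ribosomal protein genes the clearest pattern lay between the circSry KO libraries themselves. circSry KO replicate 3 held the highest CPM of all 6 libraries for 69 of the 78 genes, and circSry KO replicate 2 the lowest for 66 of the 78. In all 78, replicate 2 lay below replicate 1. The coefficient of variation between libraries had a median of 18.4% in WT and 78.4% in circSry KO. No value over all genes is given here for these counts and coefficients. Other short housekeeping transcripts shared this order of libraries, as described below.

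Relative to the WT mean, the median log2 CPM of the 78 genes was -0.15 in circSry KO replicate 1, -1.01 in replicate 2 and 1.28 in replicate 3. The same median over all genes tested was 0.04, -0.00 and -0.02. In replicate 2, 67 of the 78 genes lay below all WT libraries, where 39.4% of all genes tested did so. In replicate 3, 70 lay above all WT libraries, against 38.5% of all genes tested. In replicate 3, 2 genes lay below all WT libraries, beside 40.2% of all genes. Replicate 1 was mixed, with 35 below and 14 above all WT libraries, beside 37.4% and 39.0% of all genes. As a share of all counts, the 78 genes took 0.280% to 0.381% in WT and 0.280%, 0.169% and 0.592% in circSry KO replicates 1, 2 and 3.

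On the TPM scale the summed level was 6681, 5614 and 5325 in WT and 4390, 3131 and 8086 in circSry KO. Replicates 1 and 2 thus lay below every WT library and replicate 3 above. Gene by gene, replicate 3 had 42 of the 78 above all WT libraries and 18 below in TPM, where 16.9% and 62.8% of all genes were. In bulk RNA, fewer cells of a type and less RNA per cell cannot be told apart.

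**Figure D2:**
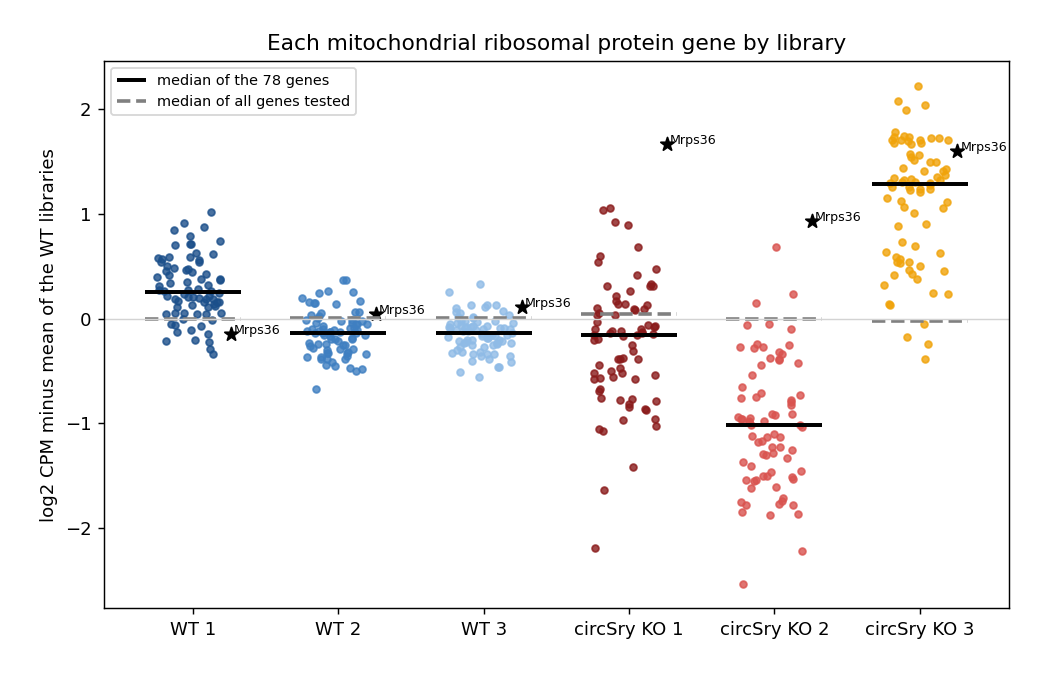
Each point is 1 of the 78 genes, its log2 CPM minus the mean of the 3 WT libraries, by library; black bars are medians of the 78 genes, dashed grey bars medians of all genes tested, and the star is Mrps36. The medians are -0.15, -1.01 and 1.28 in circSry KO replicates 1, 2 and 3, while Mrps36 is above 0 in all 3.

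Over all 6 libraries, edgeR's quasi-likelihood test called 0 of the 78 genes at an adjusted p of 0.05, where it called 0.0% of all 16829 genes tested in either direction. At an unadjusted p under 0.05, 2 were higher (Mrps36 and Mrpl32) and 0 lower, beside 13.6% and 9.84% of all genes tested. The count of higher genes was 14 without circSry KO replicate 2, where 13.5% of all genes were higher. It was 1 without WT replicate 2 and 1 without circSry KO replicate 1, beside 7.31% and 7.41% of all genes. In these last 2 fits 0 were lower, beside 3.87% and 4.33%. DESeq2 called 1 of the 78, Mrps36, higher and 0 lower, beside 6.9% and 4.65% of all genes. limma-voom called 0 of the 78 too. The median log2 fold change of the 78 was 0.33, against 0.12 for all genes, and 59 were positive, where 55.3% of all genes were. It was -0.64 without circSry KO replicate 3 and -0.42 on the log2(TPM + 1) scale, on which the median of all genes was -0.25.

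Mrps36, the gene whose protein belongs to the 2-oxoglutarate dehydrogenase complex, had the largest log2 fold change of the 78 (ENSMUSG00000061474; GRCm38 chromosome 13, 100735955 to 100744659, minus strand). It stood at 6.18, 7.11 and 7.46 CPM in WT and at 23.0, 13.6 and 21.9 CPM in circSry KO replicates 1, 2 and 3. All 3 circSry KO libraries were above all WT libraries, including replicate 2, in which most of the other genes were low. The WT mean was 6.92 ± 0.66 CPM and the circSry KO mean 19.5 ± 5.14 CPM (SD, n = 3 each).

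At 1.49 ± 0.36 (SE), the log2 fold change of Mrps36 did not pass in edgeR, with an adjusted p of 0.0942. DESeq2 gave an adjusted p of 0.00543, and edgeR without circSry KO replicate 3 gave 1.35 and an adjusted p of 0.011. Over all alternatives the adjusted p ranged from 0.00543 to 0.418. With offsets that remove each library's trend on transcript length the log2 fold change was 0.56. Of its 3 pseudogene rows, 2 had a count of 0 in all libraries and Mrps36-ps2 had 2 in circSry KO replicate 3 and 0 elsewhere, so few reads had been assigned to those copies. How reads shared between copies were divided is not known here, and the level of Mrps36 is uncertain to that extent.

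Mrpl32 was the only other gene of the 78 with all circSry KO libraries above WT in CPM, beside 14.1% of all genes tested. It encodes bL32m, which in mouse is cut to its mature form by the m-AAA protease before it joins the large subunit. Its CPM was 17.9, 13.1 and 21.7 in WT and 35.9, 28 and 40.9 in circSry KO. The log2 fold change was 1.00 ± 0.34 (SE) with an edgeR adjusted p of 0.141, and the alternatives ranged from 0.0623 to 0.478. Leaving out circSry KO replicate 3 gave 0.82 (edgeR adjusted p = 0.0634).

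The promoter windows of 6 genes are shown, since such genes are known to share a small set of promoter motifs. Mrps36 and Mrpl32 were the highest by fold change. Mrpl44 and Mrpl45 were among the many genes that were lower in circSry KO replicates 1 and 2. Mrps11 and Mrpl46 start back to back and their windows overlap. Each window runs from 250 bases before to 50 bases after a RefSeq gene start (GRCm38.p6), 5′ to 3′ on the strand of the gene. Capitals mark matches to 5 motifs on either strand: the NRF1 motif (GCGCA and GCGC with any 1 base between them), CCGGAAG (the ETS motif read by GABPA), AAGATGGC (YY1), TGACGTCA (the cyclic AMP element) and TATAAA.
Mrps36, chr13:100744610-100744909, minus strand: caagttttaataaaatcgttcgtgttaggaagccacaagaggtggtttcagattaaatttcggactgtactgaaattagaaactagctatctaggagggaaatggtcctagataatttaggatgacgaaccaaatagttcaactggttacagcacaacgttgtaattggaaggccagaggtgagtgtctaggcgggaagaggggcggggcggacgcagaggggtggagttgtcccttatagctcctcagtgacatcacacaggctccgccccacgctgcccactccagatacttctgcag
Mrpl32, chr13:14612988-14613287, minus strand: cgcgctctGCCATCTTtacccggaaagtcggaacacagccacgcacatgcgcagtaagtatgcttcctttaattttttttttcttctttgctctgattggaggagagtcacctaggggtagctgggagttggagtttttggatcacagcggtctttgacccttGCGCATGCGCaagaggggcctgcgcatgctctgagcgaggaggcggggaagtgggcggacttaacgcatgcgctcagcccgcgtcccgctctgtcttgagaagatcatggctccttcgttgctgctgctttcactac
Mrpl44, chr1:79775768-79776067, plus strand: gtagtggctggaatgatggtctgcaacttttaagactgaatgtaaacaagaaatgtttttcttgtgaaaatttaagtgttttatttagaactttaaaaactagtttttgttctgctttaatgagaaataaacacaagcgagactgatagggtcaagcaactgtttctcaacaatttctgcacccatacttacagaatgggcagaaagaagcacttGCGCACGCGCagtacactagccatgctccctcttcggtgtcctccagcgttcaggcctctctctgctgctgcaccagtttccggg
Mrpl45, chr11:97315466-97315765, plus strand: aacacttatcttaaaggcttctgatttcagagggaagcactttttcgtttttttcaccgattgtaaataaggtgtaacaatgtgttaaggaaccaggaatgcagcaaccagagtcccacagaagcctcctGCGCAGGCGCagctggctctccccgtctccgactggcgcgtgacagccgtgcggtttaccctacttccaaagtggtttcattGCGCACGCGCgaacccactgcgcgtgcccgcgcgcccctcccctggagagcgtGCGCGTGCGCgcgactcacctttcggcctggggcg
Mrps11, chr7:78782881-78783180, plus strand: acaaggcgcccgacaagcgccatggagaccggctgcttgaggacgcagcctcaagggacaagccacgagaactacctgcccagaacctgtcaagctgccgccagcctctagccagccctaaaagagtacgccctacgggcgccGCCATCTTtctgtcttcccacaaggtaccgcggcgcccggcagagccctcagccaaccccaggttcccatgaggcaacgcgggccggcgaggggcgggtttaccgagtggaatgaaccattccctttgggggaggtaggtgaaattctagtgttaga
Mrpl46, chr7:78783040-78783339, minus strand: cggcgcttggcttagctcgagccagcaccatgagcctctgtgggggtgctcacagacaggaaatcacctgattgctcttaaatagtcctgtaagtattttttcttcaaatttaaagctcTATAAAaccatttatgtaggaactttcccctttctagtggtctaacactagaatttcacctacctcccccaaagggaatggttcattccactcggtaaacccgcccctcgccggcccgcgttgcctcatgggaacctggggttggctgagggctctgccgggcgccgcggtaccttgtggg

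The Mrps36 window held 0 matches to these letters. Mrpl32 held 1 NRF1 and 1 YY1 match, Mrpl44 held 1 NRF1 match and Mrpl45 held 3 that do not overlap. Mrps11 held 1 YY1 match and Mrpl46 1 TATAAA. Of other genes called lower without circSry KO replicate 3, the windows of Mrps5, Mrps10 and Mrps25 held 0 matches. Those of Mrpl3 and Mrpl27 held 1 ETS match each, that of Mrps7 1 YY1 match and that of Mrpl9 1 NRF1 match. Any link between motif and direction was not tested.

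RefSeq promoter windows were at hand for 69 of the 78 genes, 75 windows in all. NRF1 and GABPA are textbook activators of nuclear genes for mitochondrial proteins. The ETS motif was in 34.7% of these windows, against 15.3% of the windows of all genes tested and 8.86% of all windows. The NRF1 motif was in 17.3%, against 8.66% and 4.6%, and the YY1 motif in 16%, against 3.93% and 2.75%. At least 1 of these 3 was in 43 of the 75 windows (57.3%), against 24.9% of the windows of genes tested and 14.7% of all windows. The cyclic AMP element was in 2.67%, against 2.83% of the windows of genes tested, and TATAAA in 6.67%, against 8.01%. Motifs can overlap each other, several windows of 1 gene share bases, and a match is a string of letters, not a measured site.

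**Figure D3:**
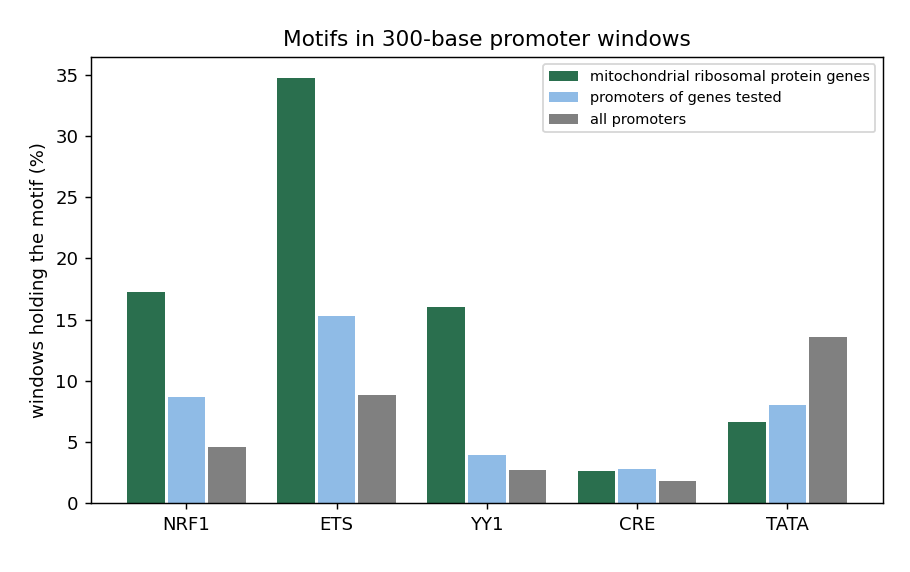
Share of 300-base promoter windows (250 before to 50 after the start) that hold each motif on either strand, for mitochondrial ribosomal protein genes (75 windows), genes tested (15560) and all genes (32851). The bars of the ribosomal protein genes stand above both others for NRF1, ETS and YY1 and not for the cyclic AMP element (CRE) or TATAAA.

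Of the ribosomal proteins proper, the next highest fold changes were those of Mrpl35, Mrpl30, Mrpl47 and Mrps21. Mrpl30, the counterpart of bacterial L30, had 44.3, 34.3 and 32.3 CPM in WT and 59.2, 40.6 and 109 CPM in circSry KO. Mrpl47, encoding uL29m at the tunnel exit, had 73.2, 47.7 and 54.1 CPM against 109, 55.4 and 163. In both genes the groups overlapped through circSry KO replicate 2. Mrpl35 stood at 46.4, 35.5 and 46.5 CPM in WT and at 61.8, 35.8 and 147 in circSry KO, and most of its fold change lay in replicate 3. Their log2 fold changes were 0.91 ± 0.41, 0.91 ± 0.43 and 0.93 ± 0.51 (SE), and edgeR's adjusted p was 0.226, 0.24 and 0.298. Without circSry KO replicate 3 the log2 fold changes of Mrpl30, Mrpl47 and Mrpl35 were 0.39, 0.45 and 0.14. The edgeR adjusted p values of that fit were 0.336, 0.32 and 0.749.

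Mrps21, at 18.0, 13.8 and 13.3 CPM in WT and 14.2, 5.31 and 64.4 CPM in circSry KO, was among the 3 genes with the widest range over the libraries, together with Mrpl52 and Mrps34. Mrpl52 ran from 10.4 CPM in circSry KO replicate 2 to 185 CPM in replicate 3, with 70.8, 32.1 and 26.6 CPM in WT. Mrps34, needed in mouse for a stable small subunit, ran from 5.42 to 67.1 CPM in the same libraries and had 40.7, 20.9 and 23.3 CPM in WT. The log2 fold change of Mrps21 was 0.89 ± 0.77 and that of Mrpl52 0.79 ± 0.92 (SE), and -0.67 and -1.20 without circSry KO replicate 3. In Mrps34 the sign of the group difference rests on 1 library: its log2 fold change was 0.05 ± 0.78 (SE) over 6 libraries and -1.48 without circSry KO replicate 3 (edgeR adjusted p = 0.0293).

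The lowest fold changes belonged to Mrps27, Mrpl44, Mrps25, Mrpl3, Mrpl9 and Mrpl38, none of which passed in edgeR over 6 libraries and all 6 of which were called lower without circSry KO replicate 3. Mrpl44, whose protein has a ribonuclease III fold, was the only 1 of the 78 with all circSry KO libraries below all WT libraries in CPM, where 14.3% of all genes tested were. It had 17.7, 16.1 and 13.8 CPM in WT and 9.62, 5.08 and 13.3 CPM in circSry KO, a log2 fold change of -0.77 ± 0.42 (SE; edgeR adjusted p = 0.303). Mrps27 had 28.4, 17.4 and 16.1 CPM in WT and 10.9, 5.77 and 17.6 in circSry KO, a log2 fold change of -0.85 ± 0.47 (SE; edgeR adjusted p = 0.308). Here circSry KO replicates 1 and 2 were below WT and replicate 3 within it. Without replicate 3, Mrpl44 and Mrps27 had log2 fold changes of -1.15 and -1.35, with edgeR adjusted p of 0.0313 and 0.0233.

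Mrpl38, of the central protuberance, showed the same layout at a higher level, with 155, 103 and 107 CPM in WT and 60.9, 40.7 and 132 CPM in circSry KO. Mrpl3, next to the peptidyl transferase centre, had 33.8, 44.2 and 40.7 CPM in WT and 20, 13.6 and 37.8 CPM in circSry KO. Mrps25 had 127, 177 and 144 CPM in WT and 47.3, 42.9 and 175 in circSry KO, and Mrpl9 had 37.8, 35.1 and 32.3 against 19.0, 9.92 and 38.4. In all 4, circSry KO replicates 1 and 2 were below WT. Replicate 3 was within the WT range for Mrpl38, Mrpl3 and Mrps25 and just above it for Mrpl9. Over 6 libraries the log2 fold changes of Mrpl38, Mrpl3, Mrps25 and Mrpl9 were -0.64 ± 0.46, -0.73 ± 0.42, -0.76 ± 0.55 and -0.64 ± 0.48 (SE). Without replicate 3 they were -1.30, -1.28, -1.77 and -1.32, with edgeR adjusted p of 0.0109, 0.0103, 0.00167 and 0.0134.

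On TPM, 15 of the 78 genes lay below all WT libraries in all circSry KO libraries. Another 4 lay above (Mrps36, Mrpl32, Mrpl30 and Mrpl35). Both counts were near the shares of all 17772 genes, 20.7% below and 6.31% above. limma on log2(TPM + 1) called 0 of the 78, where it called 0.0169% of all genes lower and 0.0225% higher. By unadjusted p under 0.05 it had 12 of the 78 lower and 1 higher, beside 16.5% and 5.59% of all genes.

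Without circSry KO replicate 3, edgeR called 20 of the 78 genes lower and 1, Mrps36, higher, where it called 16.2% and 18.5% of all 17948 genes tested. At an unadjusted p under 0.05 it had 30 lower and 2 higher, beside 21.8% and 24.4% of all genes. Since the library removed is the one that stood apart, these p-values are too small. Negative log2 fold changes numbered 67 of the 78 in that fit and 19 over all 6 libraries, and 48 genes changed sign. The lowest were Mrpl27 at -2.64 ± 0.41, Mrps25 at -1.77 ± 0.30 and Mrps7 at -1.72 ± 0.36 (SE), with edgeR adjusted p of 0.0011, 0.00167 and 0.00444. Over 6 libraries these genes stood at -0.48 ± 0.88, -0.76 ± 0.55 and -0.51 ± 0.63 (SE).

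Mrpl27, the counterpart of the bacterial protein L27 that reaches the peptidyl transferase centre, was chosen after its values were seen. It had 14.8, 18.7 and 10.7 CPM in WT, 2.76 and 2.08 CPM in circSry KO replicates 1 and 2 and 27 CPM in replicate 3. Replicate 3 thus lay above WT and the other replicates far below.

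**Figure D4:**
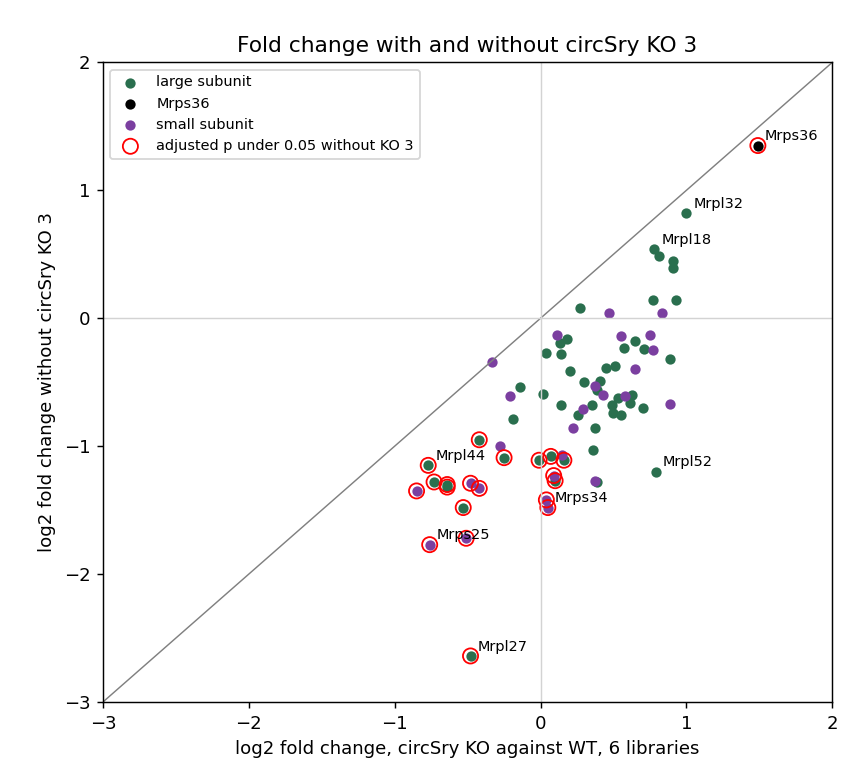
Log2 fold change (circSry KO against WT) of each of the 78 genes over 6 libraries (x axis) and without circSry KO replicate 3 (y axis), with the line of equality in grey and genes at an adjusted p under 0.05 in the second fit ringed. Nearly all points fall below the line, 48 change sign, and Mrps36 is the ringed point above 0.

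Some genes kept their side in all fits. Over the 6-library fit and 16 alternatives, 7 of the 78 had a positive log2 fold change in each (Mrpl1, Mrpl18, Mrpl32, Mrpl35, Mrpl47, Mrps14 and Mrps36) and 12 a negative one (Mrpl3, Mrpl9, Mrpl38, Mrpl40, Mrpl44, Mrpl45, Mrps2, Mrps5, Mrps7, Mrps10, Mrps25 and Mrps27). These lists were read off the data, the fits share libraries, and no share of all genes that kept their side is given here.

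The flattest genes over the 6 libraries were Mrps2, Mrpl39 and Mrps22. Mrps2 had 15.4, 21.2 and 20.7 CPM in WT and 16.8, 14.4 and 14.4 in circSry KO. Mrpl39 had 105, 103 and 135 CPM against 143, 106 and 165, and Mrps22, of the mitochondria-specific proteins of the small subunit, 32.4, 32.9 and 36.6 against 39.4, 24.8 and 45.5. All 3 overlapped between groups, with log2 fold changes of -0.33 ± 0.32, 0.27 ± 0.31 and 0.11 ± 0.33 (SE), and of -0.34, 0.08 and -0.13 without circSry KO replicate 3.

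The 3 mammalian relatives of bacterial S18 differed in how far they spread. Mrps18a encodes a protein of the large subunit, and Mrps18b and Mrps18c encode proteins of the small subunit at different sites. Mrps18a stood at 42.3, 25.4 and 30.3 CPM in WT and 34.2, 25.5 and 93.7 in circSry KO. Mrps18b stood at 63.1, 31.6 and 40.7 CPM in WT and 60.3, 35.8 and 90.8 in circSry KO. Mrps18c stood at 37.1, 15.4 and 13.9 CPM in WT and 13.2, 5.65 and 67.2 in circSry KO. The groups overlapped in all 3. circSry KO replicates 1 and 2 were within the WT range for Mrps18a and Mrps18b and below it for Mrps18c, and the range over libraries on the log2 scale was 1.86, 1.51 and 3.46. Log2 fold changes of Mrps18a, Mrps18b and Mrps18c were 0.65 ± 0.51, 0.47 ± 0.43 and 0.37 ± 0.83 (SE), and -0.18, 0.04 and -1.27 without circSry KO replicate 3.

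Mrps30, whose protein is in the large subunit, was close to level, at 54.6, 47.1 and 49.7 CPM in WT and 55.6, 30.6 and 69.3 in circSry KO. Its log2 fold change was 0.04 ± 0.36 (SE), and -0.27 without circSry KO replicate 3. Mrpl12, of the stalk that recruits translation factors, had 155, 57.7 and 61.4 CPM in WT and 77.4, 40.4 and 267 in circSry KO, a log2 fold change of 0.49 ± 0.70 (SE), or -0.68 without circSry KO replicate 3.

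By position in the particle, the 4 stalk genes had a median log2 fold change of 0.42, the 8 of the central protuberance 0.12 and the 7 around the exit tunnel 0.20. Without circSry KO replicate 3 the medians were -0.68, -0.99 and -0.49, and 0, 4 and 2 genes were called lower, where 16.2% of all genes were. The 4 were Mrpl27, Mrpl38, Mrpl40 and Mrpl48, and the 2 were Mrpl24 and Mrpl45, the protein of which holds the ribosome near the inner membrane. Large-subunit genes had a median of 0.36 and small-subunit genes 0.19, and -0.62 and -0.69 without that library. Conserved and mitochondria-specific proteins had medians of 0.38 and 0.15, and -0.66 and -0.62 without it. Differences between these classes were not tested.

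Transcript length moved with the values. The effective length implied by the deposited counts and FPKM had a median of 789 bases for the 78 genes and 1886 for all genes tested. In circSry KO replicate 3, the deviation from WT had a Spearman's rho of -0.56 with length over the 78 genes and -0.62 over all genes tested. For replicates 1 and 2 it was -0.16 and 0.04 over the 78 and -0.33 and 0.0 over all genes. WT libraries had such trends too, at -0.51, 0.45 and 0.22 over all genes and -0.15, 0.03 and 0.25 over the 78 in replicates 1, 2 and 3. The 39 shorter genes had a median deviation of 1.41 in replicate 3 and the 39 longer ones 0.64, while in replicate 2 both were low, at -0.99 and -1.01.

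With offsets that remove each library's trend on length, 61 of the 78 log2 fold changes were negative, the median was -0.32 and edgeR called 0 of the 78, beside 0.0% of all genes. At an unadjusted p under 0.05 that fit had 6 lower and 0 higher, against 8.68% and 12.8% of all genes.

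**Figure D5:**
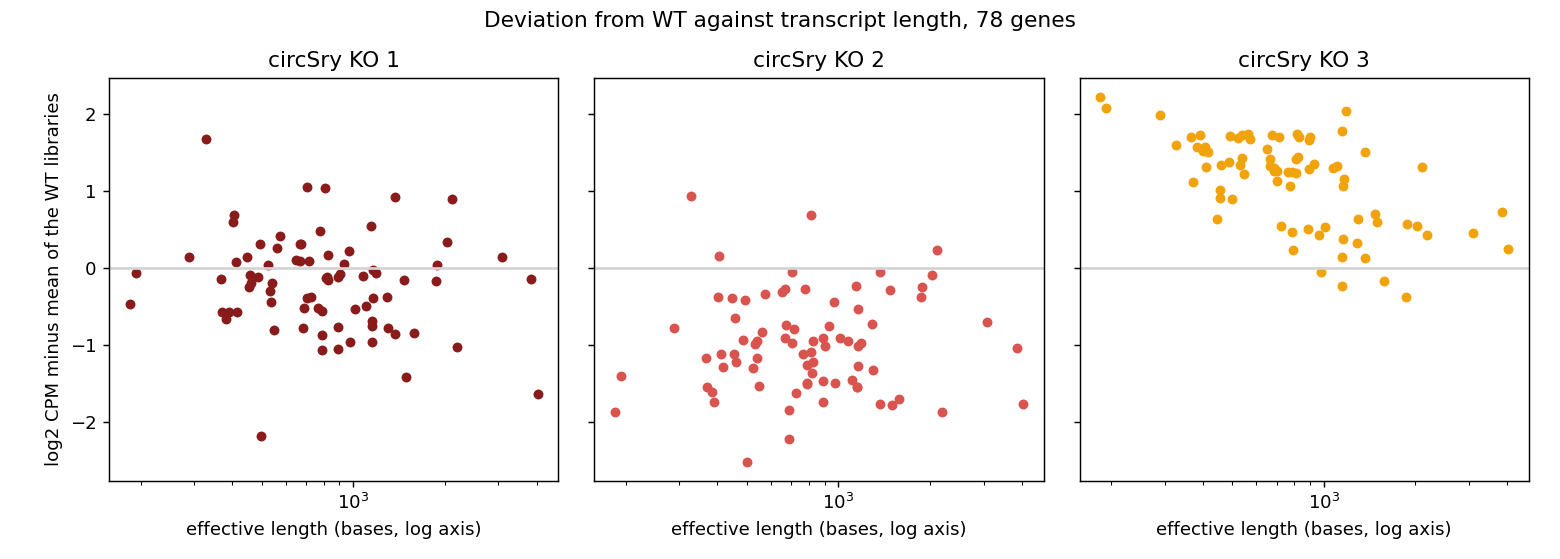
Log2 CPM minus the WT mean for each of the 78 genes against effective transcript length in bases (log axis), 1 panel for each circSry KO library. In circSry KO replicate 3 the shortest genes lie highest (rho = -0.56), while replicates 1 and 2 show rho of -0.16 and 0.04.

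Mitochondrial ribosomal proteins under other symbols followed the same order of libraries. Their list had 5 members in the table (Dap3, Ptcd3, Chchd1, Aurkaip1 and Gadd45gip1), of which edgeR and DESeq2 called 0 and 0 had an unadjusted p under 0.05. In CPM, 5 of 5 lay below all WT libraries in circSry KO replicate 2 and 5 of 5 above in replicate 3. Over all genes tested these shares were 39.4% and 38.5%. Chchd1 stood at 40.8, 23.7 and 18.2 CPM in WT and 26.5, 9.0 and 97.2 in circSry KO. Ptcd3 stood at 53.2, 61.1 and 59.7 against 43.0, 33.2 and 71.8. Neither differed beyond the spread, with log2 fold changes of 0.68 ± 0.76 and -0.23 ± 0.36 (SE), and of -0.68 and -0.65 without circSry KO replicate 3.

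Of the genes that build the mitochondrial ribosome, the 24 assembly factors had a median deviation of -0.47, -0.87 and 0.54 in circSry KO replicates 1, 2 and 3 and a median log2 fold change of -0.33. edgeR and DESeq2 called 0, with 2 higher (Tfb1m and Fastkd2) and 2 lower (Eral1 and Ybey) at an unadjusted p under 0.05 in edgeR. Of all genes tested, 13.6% were higher and 9.84% lower by that measure. Eral1, a GTPase that binds the small-subunit RNA, had 22.3, 30.7 and 25.6 CPM in WT and 14.4, 12 and 16.8 in circSry KO, and Ybey, an RNA-processing factor, had 4.4, 4.08 and 4.55 against 1.77, 1.85 and 2.42. All circSry KO libraries were below WT in both, as in 14.3% of all genes tested, with edgeR adjusted p of 0.165 and 0.167. Their log2 fold changes were -0.86 ± 0.32 and -1.11 ± 0.42 (SE), and -1.04 and -1.31 without circSry KO replicate 3 (edgeR adjusted p = 0.0246 and 0.0351).

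Of 16 translation factors in the table, edgeR called 0 and DESeq2 1 lower, beside 4.65% of all genes lower in DESeq2. At an unadjusted p under 0.05 in edgeR, 3 were lower (Mtif2, Gfm1 and Gfm2) and 0 higher, beside 9.84% and 13.6% of all genes. The median log2 fold change was -0.22. The initiation factor gene Mtif2 had 29.0, 44.2 and 38.5 CPM in WT and 14.7, 16.3 and 16.6 in circSry KO. The elongation factor gene Gfm1 had 28.3, 45.1 and 44.9 against 21.6, 20 and 22.1. In these 2 the circSry KO libraries were alike and below WT, where 14.3% of all genes tested had all circSry KO libraries below WT. Log2 fold changes of Mtif2 and Gfm1 were -1.23 ± 0.32 and -0.90 ± 0.32 (SE, edgeR adjusted p = 0.0953 and 0.156). Leaving out circSry KO replicate 3 gave -1.31 and -0.97 (edgeR adjusted p = 0.00888 and 0.0339).

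The 20 genes of mitochondrial aminoacyl-tRNA synthetases and their partners had a median of -0.27. edgeR called 0 and DESeq2 1 lower, beside 4.65% of all genes lower in DESeq2. At an unadjusted p under 0.05 edgeR had 2 below WT and 0 above, beside 9.84% and 13.6% of all genes. Iars2, which loads isoleucine, had 44.1, 66.1 and 57.7 CPM in WT and 19.1, 28.7 and 23.6 in circSry KO (log2 fold change -1.23 ± 0.33 SE; edgeR adjusted p = 0.0965). For Iars2, all circSry KO libraries were below all WT libraries, as in 14.3% of all genes tested. Its log2 fold change without replicate 3 was -1.28 (edgeR adjusted p = 0.0113).

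Among the 8 genes of mitochondrial transcription and DNA upkeep, edgeR called 0 and DESeq2 1 higher and 1 lower, beside 6.9% and 4.65% of all genes in DESeq2. At an unadjusted p under 0.05 edgeR had 1 in each direction, beside 13.6% of all genes higher and 9.84% lower. Tfam, which packs mitochondrial DNA and starts its transcription, had 29.8, 22.9 and 20.4 CPM in WT and 184, 130 and 62.1 in circSry KO, a log2 fold change of 2.36 ± 0.44 (SE; edgeR adjusted p = 0.087). Polrmt, the mitochondrial RNA polymerase, had 42.6, 58.9 and 46.2 CPM against 17.5, 17.4 and 30.4, or -1.18 ± 0.36 (SE; edgeR adjusted p = 0.116). Both separated the groups in CPM, in opposite directions, as did 14.1% of all genes tested upward and 14.3% downward. Without circSry KO replicate 3, Tfam had 2.64 and Polrmt -1.54, with edgeR adjusted p of 0.000297 and 0.00343. The 8 regulators of mitochondrial biogenesis had a median of -0.33 with 0 called and 0 at an unadjusted p under 0.05; DESeq2 called 0 of them. Yy1 had 107, 106 and 96.5 CPM against 54.6, 41.0 and 89.3, and Pprc1 20.5, 33.1 and 27.5 against 16.9, 24.7 and 13.3. Their log2 fold changes were -0.74 ± 0.36 and -0.56 ± 0.37 (SE), and -1.15 and -0.43 without circSry KO replicate 3 (edgeR adjusted p = 0.0108 and 0.326). Without circSry KO replicate 3, edgeR called 8 of the assembly factors, 6 of the translation factors, 10 of the synthetase list, 2 of the transcription list and 2 of the regulators lower, and 2, 0, 0, 1 and 0 higher, where 16.2% of all genes were lower and 18.5% higher.

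Most messages that this ribosome translates were low in circSry KO replicate 3, with 9 of 13 below all WT libraries in CPM and 2 of 13, mt-Atp6 and mt-Nd3, above. In that library 40.2% of all genes tested lay below all WT libraries and 38.5% above. mt-Atp6 had 367, 269 and 147 CPM in WT and 243, 190 and 704 in circSry KO, and mt-Nd3 81.2, 92.2 and 50.6 against 52.1, 16.3 and 105. Both were named after their values were seen. The 13 protein-coding genes of mitochondrial DNA had a median deviation of -1.44 there, -0.47 and -0.26 in replicates 1 and 2, and -1.0, 0.84 and 0.16 in WT. Their summed level was 15353, 47903 and 27627 TPM in WT and 15303, 23484 and 6970 in circSry KO. edgeR called 0 of the 13, DESeq2 0, and 0 had an unadjusted p under 0.05. mt-Nd5 had 201, 911 and 555 CPM in WT and 220, 390 and 42 in circSry KO, and mt-Cytb 581, 2090 and 1300 against 820, 954 and 320. For mt-Nd5 and mt-Cytb, WT libraries spread widely and the groups overlapped, with log2 fold changes of -1.35 ± 0.78 and -0.93 ± 0.55 (SE), and of -0.91 and -0.63 without circSry KO replicate 3.

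Other short housekeeping transcripts shared the order of libraries. The 81 tested genes of cytosolic ribosomal proteins had median deviations of 0.26, -0.72 and 1.76 in circSry KO replicates 1, 2 and 3, and the 81 tested nuclear genes of the respiratory complexes -0.05, -0.79 and 1.70. Median log2 fold changes were 0.80 and 0.69, and -0.23 and -0.48 without replicate 3, where 0.33 and -0.64 were those of the 78 genes. These differences were not tested.

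Markers of other cells also moved between the groups. The 10 elongating spermatid markers, 10 tested, summed to 7882 to 10431 TPM in WT and 14227 to 51594 in circSry KO, and the 11 round spermatid markers to 1401 to 1873 and 1630 to 3709. The 15 spermatocyte markers summed to 9644 to 11206 TPM in WT and 7560 to 8612 in circSry KO. Ldhc, a lactate dehydrogenase of germ cells, made up much of that sum, at 4920 to 5810 TPM in WT and 4580 to 4860 in circSry KO. The median log2 deviation of the 15 from the WT mean in TPM was -1.27, -0.93 and -0.67 in circSry KO replicates 1, 2 and 3. Piwil1, which binds piRNAs in spermatocytes and spermatids, had 352, 644 and 468 TPM in WT and 17.2, 31.1 and 168 TPM in circSry KO. Its edgeR log2 fold change of -1.91 was the lowest of the 15. Pgk2 of the same list went the other way at 1.22, with 297, 222 and 317 TPM in WT and 682, 759 and 186 in circSry KO. In edgeR 2 of the 15 had a positive log2 fold change. Macrophage markers, 8 of 10 tested, summed to 30 to 39 TPM in WT and 473, 358 and 25 in circSry KO replicates 1, 2 and 3, where C1qc was at 0 in replicate 3. Peritubular and endothelial markers, 8 of 8 tested, gave 38 to 79 TPM in WT and 279, 346 and 10. Sertoli markers, 7 of 11 tested, gave 83 to 115 and 169 to 462, with Fshr at 0 in all WT libraries. Leydig markers, 8 of 8, gave 1584 to 2221 and 645 to 1054, and spermatogonial markers, 10 of 10, gave 176 to 228 and 202 to 274. The part of other cells and of length in the differences above was not tested.

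The library kit does not mark strand, and 33 of the 78 genes share exon bases with another annotated gene, 23 of them with a protein-coding one. Reads from such places cannot be told apart by strand. Examples among the genes described are Mrps25, which shares 4590 bases with Nr2c2, and Mrpl19, which shares 1962 with Gcfc2. Mrpl24 shares 594 bases with Rrnad1, Mrps27 506 with 6430562O15Rik, Mrpl44 126 with Wdfy1 and Mrpl27 75 with Eme1. Mrps18b, Mrps18c and Mrps30 also share bases with other genes. Mrps34 overlaps Nme3 and Mapk8ip3, and Mrpl47 overlaps Actl6a and Ndufb5. Mrpl9 shares 157 bases with Oaz3, a gene of spermatids that stood at 266 to 279 TPM in WT and 432 to 1390 in circSry KO. Mrps36, Mrpl32 and Mrpl52 share none. Mrps11 and Mrpl46 share 173 bases. Both were highest in circSry KO replicate 3, as 69 of the 78 genes were, and lowest in replicate 2, as 66 of the 78 were. Those values were 128 and 22.3 CPM for Mrps11 and 69.1 and 11.2 CPM for Mrpl46.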

How the data were processed

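The authors deposited 1 workbook, which per the file headers holds for each gene the expected counts without normalization and, computed by the authors within each library, TPM and FPKM. Tools and builds listed in the submitters' processing notes are STAR 2.7.0f, RSEM 1.3.2, edgeR 3.28.1, GRCm39 and mm9, without roles. No source used here names an annotation release. Both sheets hold the same TPM values apart from Zfy1 in circSry KO replicate 3 (0.81 and 2.8), which is no member. FPKM served to compute effective lengths, as the median over libraries with at least 10 counts.

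Expected counts were rounded and fitted in edgeR 4.0.16 (R 4.3.3) with filterByExpr, TMM factors and genotype tested by quasi-likelihood, and p-values were adjusted over the genes tested (Benjamini-Hochberg, threshold 0.05). The standard error is the log2 fold change over the square root of F. Steps were tested on simulated data. The members and lists were chosen with earlier results of these data known. Fits were repeated with upper-quartile or RLE factors, with a minimum of 1 CPM in 3 libraries or none, with a replicate block, with each library left out, with DESeq2 1.42.0 on the genes that passed filterByExpr, with limma-voom (limma 3.58.1), with limma on TPM (pseudocount 1 or 0.1, genes reaching 1 TPM in 3 libraries), and with offsets from a lowess trend (span 0.3) on length. Deviations from the WT mean use log2(CPM + 0.5). Positions came from GENCODE M21 (GRCm38), matched by gene identifier, since the build used for counting may differ.

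Genes given with values in every library were, in each subunit, the 4 with the highest and the 2 with the lowest WT level, the 6 highest and 6 lowest fold changes, up to 5 per direction with separated groups, Mrps18a, Mrps18b, Mrps18c, Mrps30, Mrps36 and Mrpl12, and the 3 flattest and 3 widest over the libraries. Of each list of mitochondrial translation, transcription and biogenesis genes the 2 with the smallest p were named, apart from 1 gene that is not reported here. Others were named after their values were seen.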

Additional observations from a re-analysis of the deposited data

How the results depend on the processing

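Over all genes, edgeR called 0 in the 6-library fit, 869 with no filter and 6228 without circSry KO replicate 3, against 0 without any other library; DESeq2 called 1943, and limma called 7 on log2(TPM + 1) and 41 on log2(TPM + 0.1). Of the 78 genes, 21 were called without circSry KO replicate 3 (0 to 21 over left-out libraries), 1 in DESeq2 and 0 in the other alternatives. Genes higher at an unadjusted p under 0.05 numbered 2, with 4 under upper-quartile factors, 0 with length offsets, 1 on each TPM scale and 1 to 14 over left-out libraries. Of all genes tested, 13.6% were higher in the 6-library fit and 12.8% with length offsets. That share was 5.59% on log2(TPM + 1) and 13.5% without circSry KO replicate 2, the fit with 14. Lower ones numbered 0, with 6 under length offsets, 12 and 9 on log2(TPM + 1) and log2(TPM + 0.1) and 0 to 30 over left-out libraries. Shares of all genes lower were 9.84%, 8.68% and 16.5% in the 6-library, length-offset and log2(TPM + 1) fits. It was 21.8% without circSry KO replicate 3, the fit with 30. No such share is given here for upper-quartile factors or log2(TPM + 0.1). The median log2 fold change of 0.33 was -0.32 with length offsets, -0.42 and -0.44 on the same TPM scales and -0.64 to 0.71 over left-out libraries, the lowest without circSry KO replicate 3 and the highest without replicate 2. Mrpl24 and Mrps34 turned from 0.10 and 0.05 to -1.27 and -1.48 without circSry KO replicate 3, and both reached 0.54 without circSry KO replicate 2. The cause was not tested.

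Replicate numbers gave no pairing: WT and circSry KO libraries of the same number had deviations that correlated at 0.0354, 0.334 and -0.272 over genes, and not every library correlated best with its own number. With the replicate block 0 of the 78 genes were called, and the median was 0.02. At an unadjusted p under 0.05, 2 were higher and 0 lower, with no share of all genes given here.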
